A study of Mus musculus with 8 samples.

Results

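The opioid receptors and the neuropeptide B/W receptor form a small group of peptide receptors, taken here as 5 genes named by symbol (Oprk1, Oprm1, Oprd1, Oprl1 and Npbwr1) among the 48709 genes listed for each sample. RNA was sequenced from the P3 cortex (methods: dorsal telencephalon, dTel) of 4 dcKO_hGFAP-Cre and 4 control mice on a C57BL/6J background. In dcKO_hGFAP-Cre mice both copies of the genes for BAF155 and BAF170, scaffold subunits of the chromatin-remodelling BAF complex, are floxed, and a Cre driven by a human GFAP promoter deletes them in dTel progenitors. By the study's methods, controls had the same Cre and 1 floxed allele per gene (BAF155 fl/+, BAF170 fl/+), but the titles of the samples read WT. hGFAP-Cre is active in progenitors and their offspring, so cells that reach the cortex from elsewhere can keep both genes. The receptors were chosen by their CPM in mutant and control cortex, known from an earlier look at these samples, so their differences between the groups are given as a description without a test.

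All 5 genes encode seven-transmembrane receptors that couple to inhibitory G proteins of the Gi/o family, which lower cAMP, open potassium channels and close calcium channels. Oprm1 encodes the mu receptor, the main target of morphine, Oprd1 the delta receptor, Oprk1 the kappa receptor, Oprl1 the nociceptin receptor and Npbwr1 a receptor for neuropeptides B and W. Their peptide ligands are cut from larger precursors: enkephalins from Penk, dynorphins from Pdyn, beta-endorphin from Pomc and nociceptin from Pnoc. In the forebrain, striatal projection neurons are known as a rich source of Penk and Pdyn.

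In mm10, Oprk1 (ENSMUSG00000025905) lies on the plus strand at chr1:5588466-5606131. Npbwr1 (ENSMUSG00000033774) lies on the minus strand at chr1:5913707-5917398, 307.6 kb from Oprk1, and the annotation places 0 protein-coding genes between them. Oprm1 (ENSMUSG00000000766, plus strand, chr10:6758506-7038198) has 31 annotated transcripts, and its exons overlap those of Ipcef1 on the opposite strand. Oprd1 (ENSMUSG00000050511) is on the minus strand at chr4:132110726-132144486, and Oprl1 (ENSMUSG00000027584) on the plus strand at chr2:181715016-181720985. The longest stretch of identical bases shared by transcripts of any 2 of the 5 genes was 35 bases, between Oprk1 and Npbwr1, so reads of one receptor could be assigned to another over short stretches only.

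RefSeq promoter sequences (GRCm38.p6) matched 3 of the 5 receptors, and the 250 bases upstream of a start site are shown for each of them because these genes span the range from the lowest to the highest level in control cortex. Every CpG dinucleotide is in capitals. The windows are chr10:6758343-6758592 on the plus strand for Oprm1, chr4:132144487-132144736 on the minus strand for Oprd1 and chr2:181714766-181715015 on the plus strand for Oprl1, each written 5′ to 3′ on the gene's own strand.
Oprm1: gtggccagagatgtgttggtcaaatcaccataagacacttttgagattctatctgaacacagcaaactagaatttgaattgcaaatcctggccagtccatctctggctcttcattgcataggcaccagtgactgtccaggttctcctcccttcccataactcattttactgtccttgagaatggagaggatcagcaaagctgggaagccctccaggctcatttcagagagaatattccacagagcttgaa
Oprd1: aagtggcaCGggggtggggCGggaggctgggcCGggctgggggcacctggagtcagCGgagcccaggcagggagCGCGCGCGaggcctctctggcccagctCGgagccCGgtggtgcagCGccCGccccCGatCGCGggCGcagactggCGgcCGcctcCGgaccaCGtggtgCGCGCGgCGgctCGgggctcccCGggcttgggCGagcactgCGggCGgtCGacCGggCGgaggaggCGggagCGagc
Oprl1: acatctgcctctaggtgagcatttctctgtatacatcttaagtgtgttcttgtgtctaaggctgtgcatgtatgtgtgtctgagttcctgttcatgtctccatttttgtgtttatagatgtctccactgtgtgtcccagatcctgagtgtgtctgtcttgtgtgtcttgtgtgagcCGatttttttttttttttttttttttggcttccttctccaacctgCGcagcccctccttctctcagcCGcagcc
The Oprd1 window held 34 CpG and 80.0% G and C, and 96.5% of the 32851 RefSeq promoters of this length held fewer CpG. The Oprl1 window held 3 CpG at 44.4% G and C, and the Oprm1 window 0 CpG at 45.6%, against medians of 6 CpG and 52.4% over all promoters. Of 4 motifs searched on both strands, the Oprd1 window held the E-box CACGTG, present in 6.02% of all promoters, and the GC box GGGCGG, present in 32.7%. The Oprl1 window held TATAAA only on the strand opposite to the one printed, where it reads tttata, and 12.4% of promoters held it on either strand. RefSeq lists other start sites for both genes: the other 2 windows of Oprl1 held 1 and 2 CpG and those of Oprm1 held 4 each, all 4 without any of the motifs searched. The printed Oprm1 window held none of the 4 motifs, the other one being the cAMP response element TGACGTCA, found in 1.55%. A match of this kind is a match of letters and no evidence of binding. Oprk1 and Npbwr1 are named only.

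The 8 samples held between 21126713 and 32110285 counts, and expression is given in CPM, where a count is divided by the TMM-scaled total of its library so that samples can be compared. Smarcc1, which encodes BAF155, averaged 159.0 CPM in the controls and fell to 81.2 CPM in the mutants (adjusted p = 5.44e-06, edgeR), and Smarcc2, which encodes BAF170, fell from 482.6 to 283.2 CPM (adjusted p = 2.28e-05, edgeR). Of 16525 genes tested with edgeR's quasi-likelihood test, 37.5% had an adjusted p under 0.05, 18.6% higher and 18.9% lower in the mutant. Each lane held both groups: lane 5 had replicates 1 and 2, lane 6 had replicate 3 and lane 7 had replicate 4. Nothing in the labels says how the mice were related, so p-values measure the spread between these samples. Cortical layer markers were found in every sample, summing to 941.3 to 1234.8 CPM in control and 516.0 to 567.7 CPM in mutant cortex for 7 upper-layer genes, and to 832.5 to 972.5 CPM and 593.3 to 791.4 CPM for 7 deep-layer genes.

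Levels of the 5 receptors in control cortex are comparable between genes only per length, so CPM was divided by the length of all annotated exons in kb. Oprl1 was by far the most abundant receptor, at 23.7 ± 1.2 CPM per kb (SD, n = 4). Oprd1 followed at 0.949 ± 0.061 and Npbwr1 at 0.724 ± 0.062 CPM per kb (SD, n = 4 each), with the lowest control for Oprd1 (0.893) above the highest for Npbwr1 (0.814). Oprk1 stood at 0.196 ± 0.07 and Oprm1 at 0.08 ± 0.013 CPM per kb (SD, n = 4 each). Every neighbouring pair in this order was separated in the 4 controls, including Oprk1, with a lowest value of 0.127, and Oprm1, with a highest value of 0.095. With the longest transcript as the length, the order stayed the same, but Oprk1 (0.249 to 0.569) and Oprm1 (0.215 to 0.316) then overlapped. In mutant cortex Npbwr1 stood at 1.33 ± 0.12 and Oprd1 at 0.972 ± 0.26 CPM per kb (SD, n = 4 each), which reverses their order by the mean, although their ranges (1.17 to 1.47 and 0.717 to 1.34) overlapped.

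**Figure D1:**
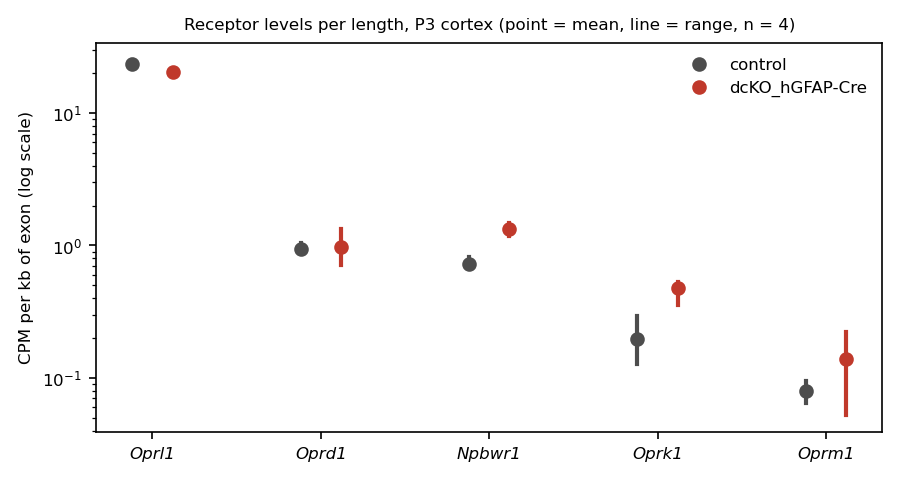
Level of the 5 receptors in CPM per kb of exon, on a log axis, in control (grey) and dcKO_hGFAP-Cre (red) cortex; points are means and lines run from the lowest to the highest of 4 samples. Oprl1 lies far above the other receptors in both groups, at 23.7 and 20.4 CPM per kb, and Oprm1 is lowest in both.

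The kappa receptor showed the greatest difference of the 5. Oprk1 was measured at 1.84, 2.66, 1.16 and 1.53 CPM in control replicates 1 to 4, from 40, 54, 35 and 44 counts. In dcKO_hGFAP-Cre replicates 1 to 4 it was at 4.87, 3.26, 4.43 and 4.80 CPM, from 114, 77, 130 and 159 counts. Every mutant lay above every control, with mutant replicate 2 the nearest to control replicate 2. Oprk1 averaged 1.80 ± 0.639 CPM in controls and 4.34 ± 0.745 CPM in mutants (SD, n = 4 each). The log2 fold change was 1.29 (SE 0.25), and 4.18% of all genes tested had a larger absolute log2 fold change. The ratio of mutant to control was 1.81 within lane 5, 3.82 within lane 6 and 3.14 within lane 7.

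Npbwr1, the neighbour of Oprk1 on chromosome 1, was at 2.62, 3.01, 2.49 and 2.57 CPM in control replicates 1 to 4. In the mutants it was at 5.04, 4.32, 5.42 and 4.92 CPM. The groups did not overlap, and both groups were tight, with means of 2.67 ± 0.23 and 4.93 ± 0.457 CPM (SD, n = 4 each). The log2 fold change was 0.89 (SE 0.16), exceeded in absolute size by 10.3% of genes tested. Mutant to control ratios were 1.66, 2.18 and 1.92 within lanes 5, 6 and 7. As for Oprk1, mutant replicate 2 had the lowest level among the mutants.

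The mu receptor was the rarest and the most variable among the mutants. Oprm1 was at 0.598, 0.690, 0.764 and 0.521 CPM in the controls, from 13 to 23 counts, and at 1.28, 0.424, 1.02 and 1.78 CPM in mutant replicates 1 to 4, from 30, 10, 30 and 59 counts. Mutants 1, 3 and 4 lay above all controls and mutant 2 below all of them, so the groups overlapped. The log2 fold change was 0.83 (SE 0.37), and it moved to 0.52 without mutant replicate 4 and to 1.08 without mutant replicate 2. Because Oprm1 exons overlap Ipcef1 on the opposite strand and the strand setting of the counting is not given in the sources used here, reads of this pair could be shared. Ipcef1, which encodes a partner of cytohesin exchange factors, went the other way, from a mean of 32.7 CPM in the controls to 18.1 CPM in the mutants (log2 fold change -0.85, SE 0.16, adjusted p = 0.00164, edgeR).

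The delta receptor showed no clear difference in level. Oprd1 was at 3.59, 3.80, 3.72 and 4.17 CPM in the controls and at 3.46, 2.88, 3.92 and 5.37 CPM in the mutants. A single mutant lay above and 2 lay below all controls, and the spread was wider among mutants (SD 1.06 CPM) than among controls (SD 0.247 CPM). Its log2 fold change was 0.04 (SE 0.20), and leaving out single replicates moved it to between -0.14 and 0.16.

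The nociceptin receptor was somewhat lower in the mutant. Oprl1 was at 87.5, 83.7, 94.2 and 89.8 CPM in the controls and at 80.4, 76.3, 72.4 and 77.8 CPM in the mutants, from at least 1698 counts in each sample. The groups did not overlap, with means of 88.8 ± 4.39 and 76.7 ± 3.35 CPM (SD, n = 4 each). The log2 fold change was -0.21 (SE 0.07), and 61.7% of genes tested had a larger absolute change. With library totals in place of TMM scaling, a setting in which the median over all genes was 0.12 higher, it was -0.09.

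Across the 5 receptors, 2 had all mutants above all controls (16.7% of genes tested did), 1 had all mutants below all controls (17.7% of genes tested did) and 2 overlapped. In whole tissue, fewer cells of a type and less RNA per cell cannot be told apart, and the same holds for more cells and more RNA.

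**Figure D2:**
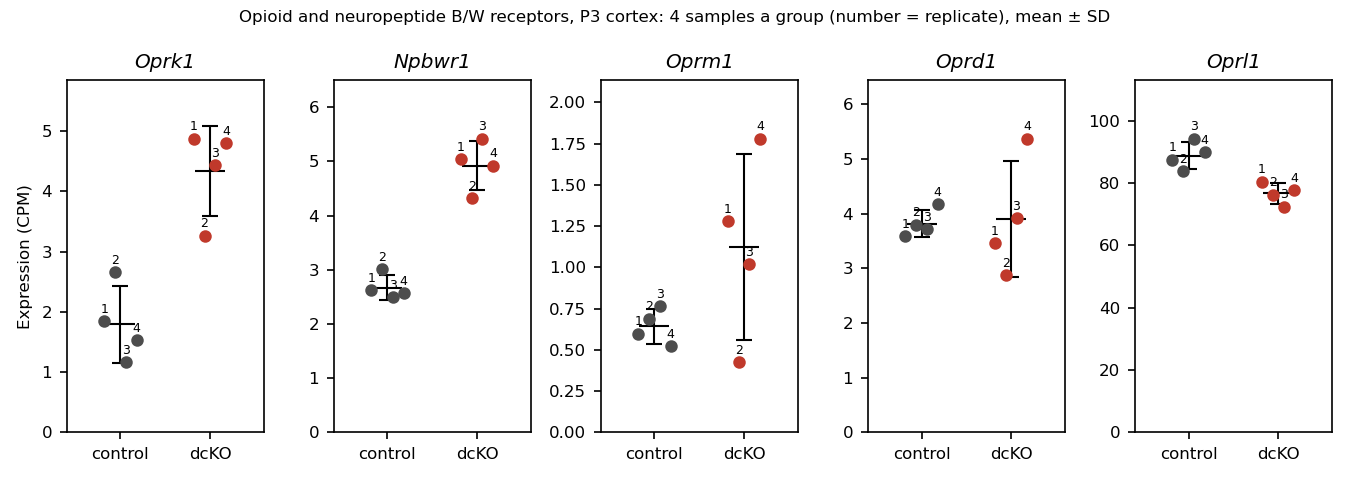
Expression in CPM (each panel has its own axis from 0) of the 5 receptors in 4 control (grey) and 4 dcKO_hGFAP-Cre (red) samples, numbered by replicate; bars are mean ± SD. Oprk1 and Npbwr1 are higher in all mutants, Oprl1 is lower in all mutants, and Oprm1 and Oprd1 overlap.

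Of the 6 genes for precursors of the peptides that bind these receptors, 4 could be tested, and 2 rose and 0 fell. This is 50% of the 4, against 37.5% called and 18.6% higher among all genes tested, and the median log2 fold change was 0.90 over the 4 and 0.02 over all genes tested. Pdyn, the precursor of the dynorphins that bind the kappa receptor, was at 6.86, 9.46, 6.44 and 5.69 CPM in the controls and at 24.2, 11.8, 23.7 and 18.0 CPM in mutant replicates 1 to 4. All mutants lay above all controls, mutant 2 being the lowest of them, and the log2 fold change was 1.46 (SE 0.23, adjusted p = 6.50e-04, edgeR). This call held in all 18 alternatives tried.

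Penk, the precursor of the enkephalins that bind the delta and mu receptors, was at 4.23, 9.32, 6.18 and 4.13 CPM in the controls and at 34, 6.69, 51.5 and 17.3 CPM in the mutants. Mutants 1, 3 and 4 were above all controls, and mutant 2 lay within the control range. The log2 fold change was 2.21 (SE 0.65, adjusted p = 0.0351, edgeR). That call was lost in 10 of 18 alternatives, with adjusted p up to 0.163 (replicate block). Leaving out any one of control replicates 1, 3 and 4 or mutant replicates 1 and 3 gave log2 fold changes of 2.08, 2.23, 2.06, 2.08 and 1.70 with adjusted p of 0.0844, 0.0929, 0.0968, 0.068 and 0.0695 (edgeR). Exons of Penk overlap A830012C17Rik on the opposite strand.

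Pnoc, the precursor of nociceptin, was at 7.09, 6.61, 8.20 and 8.43 CPM in the controls and at 9.79, 11.1, 9.11 and 8.66 CPM in the mutants. Its mutants all lay above its controls, but the log2 fold change of 0.35 (SE 0.13) did not pass the threshold (adjusted p = 0.0595, edgeR). It did not pass in 14 of 18 alternatives either. Pnoc was called higher with DESeq2, with library totals, with at least 10 counts in every sample and without mutant replicate 4. Pomc, the precursor of beta-endorphin, was near 1 CPM in both groups and overlapped (log2 fold change 0.23, SE 0.28, adjusted p = 0.535, edgeR). Npb and Npw, whose peptides bind the receptor encoded by Npbwr1, were too low to test, at no more than 0.214 and 0.212 CPM in any sample. Npw had 0 counts in control replicate 1, where 3 counts would be 0.138 CPM. For Npbwr1, then, RNA of the receptor was counted in every sample and RNA of its ligands was at or near the limit of detection.

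Mutant replicate 2 had the lowest level among the 4 mutants for Oprk1, Npbwr1, Oprm1, Oprd1, Pdyn and Penk. It had the highest level among them for the precursor genes Pnoc and Pomc, at 11.1 and 1.82 CPM. Relative to the control mean, Oprk1 stood at 2.71, 1.81, 2.47 and 2.67 in mutant replicates 1 to 4, and Pdyn at 3.41, 1.66, 3.34 and 2.52. Npbwr1 varied less, at 1.89, 1.62, 2.03 and 1.84, and Oprm1 more, at 1.99, 0.66, 1.59 and 2.77. Oprl1 was at 0.91, 0.86, 0.82 and 0.88.

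The summed level of 12 striatal projection neuron markers was also lowest in replicate 2 among the mutants, at 959.4, 480.0, 979.7 and 646.0 CPM in mutant replicates 1 to 4 and 252.8 to 355.9 CPM in the controls. Of these 12 markers, 7 rose (Drd2, Ppp1r1b, Rarb, Six3, Isl1, Ebf1 and Tac1) and 1 fell (Syndig1l). Together 66.7% were called, against 37.5% of all genes tested, of which 18.6% were higher and 18.9% lower. The other 4, among them the dopamine receptor gene Drd1 (log2 fold change -0.17, adjusted p = 0.742, edgeR), did not pass the test. Ppp1r1b, which encodes the phosphatase inhibitor DARPP-32, held 276.4 of the 480.0 CPM in mutant replicate 2, and without it the other 11 markers summed to 616.1, 203.6, 637.9 and 375.4 CPM in the mutants and 212.9 to 306.8 CPM in the controls, so that mutant replicate 2 then lay below the controls. Their part in the levels of Oprk1, Pdyn and Penk was not tested. Mutant replicates 1 and 3, which had the highest striatal sums, were left out in a further fit, chosen after seeing the data. In the 2 mutants kept, the 12 markers summed to 480.0 and 646.0 CPM, still above the controls. This fit therefore does not test their part. In it the log2 fold change was 1.19 for Oprk1, 0.80 for Npbwr1, 0.83 for Oprm1, 0.13 for Oprd1 and -0.21 for Oprl1. That of Penk was 1.03 (adjusted p = 0.116, edgeR).

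The counts of marker genes that follow are to be set beside the 18.6% of all genes tested that were higher and the 18.9% that were lower. Of 13 interneuron markers, 10 rose and 0 fell, and their sum was 750.2 to 787.0 CPM in control and 1111.3 to 1270.9 CPM in mutant cortex. Of 7 microglia markers, 5 rose and 0 fell (95.0 to 130.2 and 163.8 to 188.1 CPM). Of 9 tested markers of thalamus, hypothalamus and midbrain, 7 rose and 0 fell (52.9 to 66.2 and 77.2 to 121.1 CPM). Most of that sum was Slc17a6, which was not called (51.9 and 61.1 CPM on average). The other 10 listed genes summed to 5.52 to 9.85 CPM in control and 26.8 to 42.8 CPM in mutant cortex. Choroid plexus markers summed to 4.12 to 13.5 CPM in controls and to 617.6, 1183.5, 23.6 and 7.94 CPM in mutant replicates 1 to 4, and 2 of the 6 rose. Most of the sum in mutants 1 and 2 was Ttr (584.0 and 1127.7 CPM), which was not called (adjusted p = 0.0568, edgeR). The other 5 summed to 2.43 to 4.28 CPM in controls and to 33.6, 55.8, 7.78 and 6.22 CPM in mutant replicates 1 to 4. Mutants 1 and 2, which had the highest choroid plexus sums, were left out in a further fit, chosen after seeing the data. With 2 mutants kept, the log2 fold change was 1.38 for Oprk1, 0.95 for Npbwr1, 1.13 for Oprm1, 0.29 for Oprd1 and -0.24 for Oprl1. In the 2 mutants kept, the markers other than Ttr still summed to more than in any control. This fit therefore does not test the part of choroid plexus tissue.

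Markers of other classes fell or were mixed. In the upper-layer list 6 of 7 fell and 0 rose, in the deep-layer list 3 of 7 fell (42.9%), and all 5 oligodendrocyte precursor markers fell (367.0 to 400.2 and 220.3 to 294.9 CPM). Of 5 endothelial markers 4 fell (215.2 to 255.2 and 116.3 to 202.1 CPM). Of 9 subplate and claustrum markers 3 fell and 1 rose, together 44.4% against 37.5% of all genes tested (1769.4 to 1947.7 and 1436.2 to 1574.4 CPM). Most of that sum was Gng2 (1449.4 and 1187.2 CPM on average), and the other 8 summed to 387.6 to 415.5 and 305.0 to 346.4 CPM. Of 4 tested markers of the medial habenula, a region rich in opioid receptors, 1 fell and 1 rose (133.6 to 187.2 and 35.7 to 57.2 CPM). Nearly all of that sum was Nwd2, the gene that fell (156.2 and 39.6 CPM on average). Without it the other 5 listed genes summed to 5.29 to 6.21 CPM in the controls and 7.18 to 9.49 CPM in the mutants. In that sum Pou4f1, a habenular transcription factor gene, rose from 0.105 to 3.31 CPM on average (log2 fold change 4.98, SE 0.35, adjusted p = 1.65e-06, edgeR). Gpr151 and Chrna3 were not called (log2 fold change 0.51 and -0.19, adjusted p = 0.286 and 0.433, edgeR). Chrnb4 and Chrnb3, too low to test, averaged 0.273 and 0.0812 CPM in the controls and 0.155 and 0.0107 CPM in the mutants. No marker of these lists was at 0 in all samples, and their part in the receptor levels was not tested.

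**Figure D3:**
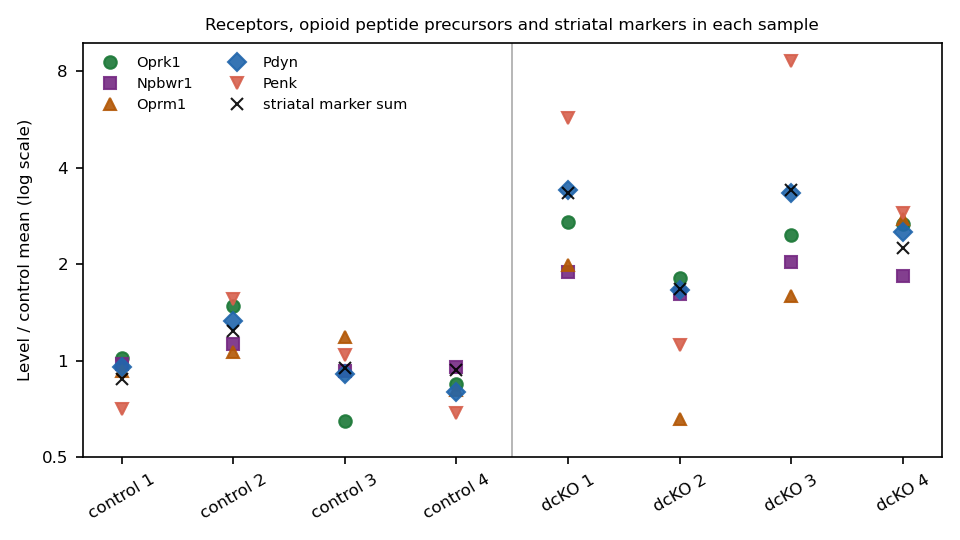
Level of 3 receptor genes, 2 opioid peptide precursors and the sum of 12 striatal markers in each sample, divided by the mean of the 4 controls (log axis). In dcKO_hGFAP-Cre replicate 2 each of the 6 values is the lowest of the 4 mutants, from 0.66 for Oprm1 to 1.81 for Oprk1. Pnoc and Pomc, which are highest in replicate 2 among the mutants, are not shown.

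The 22 signalling genes listed for these receptors are a selection and not the whole pathway, and they include genes that switch signalling off. All were tested, and 11 fell, 4 rose and 7 did not pass the threshold. Thus 68.2% were called, against 37.5% of all genes tested, with a median log2 fold change of -0.31. Among the G protein subunits, Gnao1, which encodes the abundant Go alpha subunit of neurons, fell by 0.35 on the log2 scale (SE 0.08, adjusted p = 0.00358, edgeR). Gnaz fell by 0.33 (adjusted p = 0.00415) and Gnai2 by 0.40 (adjusted p = 0.0268, edgeR), with Gnai2 in mutant replicate 3, at 324.8 CPM, inside the control range. Gnai1 had a log2 fold change of -0.04 and Gnai3 of -0.17 (adjusted p = 0.644 and 0.0636, edgeR).

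Among the channels that Gi/o proteins act on, Kcnj6, which encodes a subunit of the G protein-gated potassium channel, was at 5.75, 5.62, 5.05 and 5.66 CPM in the controls and 1.88, 2.29, 3.10 and 3.74 CPM in the mutants, and fell by 0.99 on the log2 scale (SE 0.21, adjusted p = 0.00271, edgeR). Kcnj9, another subunit, fell by 0.80 (SE 0.18, adjusted p = 0.00505, edgeR). Kcnj3 and Kcnj5, the remaining subunits, had log2 fold changes of -0.08 and 0.44 (adjusted p = 0.673 and 0.1, edgeR). Among the adenylyl cyclases, the calcium-stimulated Adcy1 and Adcy8 fell by 0.84 and 1.06 (SE 0.14 and 0.11, adjusted p = 9.72e-04 and 2.27e-05, edgeR). Adcy5, the main cyclase of the striatum, was at -0.19 (adjusted p = 0.141, edgeR). Cacna1a, the pore subunit of P/Q-type calcium channels, fell by 0.53 (SE 0.11, adjusted p = 0.00231, edgeR), and Cacna1b, that of N-type channels, was at -0.29 (adjusted p = 0.059, edgeR). Of this set, Gnao1, Kcnj6, Kcnj9 and Cacna1a have exons that overlap an annotated gene on the opposite strand.

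Genes that switch off the receptors or their G proteins were mixed. The receptor kinase genes Grk2 and Grk5 fell by 0.36 and 0.67 (SE 0.08 and 0.15, adjusted p = 0.00272 and 0.00378, edgeR), and Grk3 was at 0.05 (adjusted p = 0.839, edgeR). The arrestin genes went opposite ways, Arrb1 falling by 0.33 (SE 0.07, adjusted p = 0.00331, edgeR) and Arrb2 rising by 0.29 on the log2 scale (SE 0.07, adjusted p = 0.00894, edgeR). Of the genes for proteins that speed GTP hydrolysis, Rgs14 rose by 0.82 (SE 0.16, adjusted p = 0.00225, edgeR), Rgs9 by 0.43 (SE 0.15, adjusted p = 0.0349, edgeR) and Rgs4 by 0.34 (SE 0.10, adjusted p = 0.0218, edgeR). Rgs9 is enriched in the striatum. The calls of Gnai2, Rgs4 and Rgs9 were lost in 7, 4 and 8 of 18 alternatives. Gnai2 lost its call without control replicate 3 or 4 or mutant replicate 1, 2 or 4 (log2 fold change -0.38 to -0.31, adjusted p 0.0624 to 0.0772, edgeR). Rgs4 lost it without control replicate 1 or 3 or mutant replicate 3 (0.25 to 0.33, adjusted p 0.0501 to 0.0635), and Rgs9 without any single sample other than control replicate 1 and mutant replicate 2 (0.35 to 0.45, adjusted p 0.0689 to 0.109). Without mutants 1 and 2 the calls of Gnao1, Gnaz, Cacna1a, Grk2 and Arrb1 were lost as well, at log2 fold changes of -0.26, -0.29, -0.41, -0.32 and -0.27 and adjusted p of 0.0521 to 0.0781 (edgeR) with 2 mutants left, and 5 signalling genes fell.

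Receptors of nearby peptide families were examined beside the opioid receptors. Of 11 listed receptors for somatostatin, galanin, melanin-concentrating hormone, kisspeptin and urotensin, 10 were in the table (Galr3 was not analysed here) and 8 were tested, of which 4 fell and 0 rose. This is 50% of the 8, against 37.5% called and 18.9% lower among all genes tested, at a median log2 fold change of -0.71. The 4 were the somatostatin receptors Sstr1, Sstr2, Sstr3 and Sstr4. Sstr2 was at 20.2, 25.0, 26.3 and 30.8 CPM in the controls and 7.44, 7.54, 10.3 and 8.85 CPM in the mutants, with a log2 fold change of -1.58 (SE 0.15, adjusted p = 1.05e-05, edgeR). Sstr4 changed by -1.71 (SE 0.21), Sstr3 by -1.26 (SE 0.19) and Sstr1 by -1.09 (SE 0.17), with adjusted p of 8.02e-05, 2.86e-04 and 6.02e-04 (edgeR). All 4 calls held in the 18 alternatives. Sstr5 was at or under 1.16 CPM in every sample, with a log2 fold change of 0.97 (SE 0.44, adjusted p = 0.103, edgeR). Mchr1, Galr2 and Kiss1r had log2 fold changes of -0.33, -0.05 and 0.09 and did not pass the threshold, and Galr1 and Uts2r were too low to test. Sst itself, the somatostatin gene and an interneuron marker, rose by 1.02 on the log2 scale (SE 0.11, adjusted p = 3.04e-05, edgeR).

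**Figure D4:**
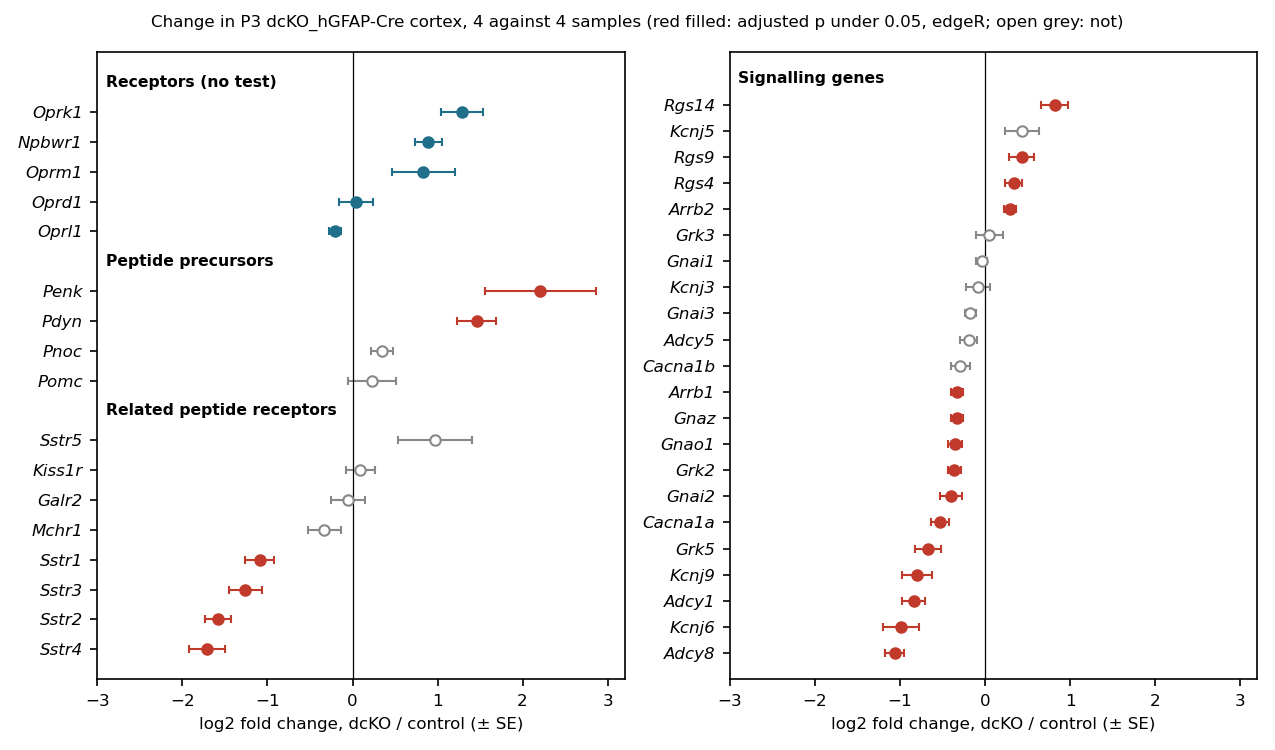
Log2 fold change (dcKO_hGFAP-Cre over control, ± SE, n = 4 each) of the 5 receptors (blue, untested), 4 peptide precursors, 8 related receptors and 22 signalling genes; filled red points have an adjusted p under 0.05 in edgeR. The receptors run from 1.29 for Oprk1 to -0.21 for Oprl1, Pdyn and Penk lie to the right, and Sstr1 to Sstr4 lie to the left.

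The genomic neighbours of the receptors were examined because Oprk1 and Npbwr1 lie next to each other. Oprk1 has 1 other protein-coding gene within 500 kb, Atp6v1h, a subunit of the proton pump of lysosomes and vesicles, at a distance of 425.9 kb. Its log2 fold change was 0.12 (adjusted p = 0.254, edgeR). Npbwr1 has Rb1cc1, an autophagy gene, at 288.8 kb, with a log2 fold change of -0.13 (adjusted p = 0.278, edgeR), and Alkal1, which was too low to test. Neither tested flanking gene passed the threshold, and whether the receptors differ from them was not tested.

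Around all 5 receptors, 51 protein-coding genes lay within 500 kb and 43 were tested, of which 7 rose and 5 fell. This is 27.9%, against 37.5% of all genes, with a median log2 fold change of 0.08. Within 500 kb of Oprm1, 1 of 3 tested genes fell, the overlapping Ipcef1. Near Oprd1, 2 of 18 rose and 2 fell. Ptpru, a receptor tyrosine phosphatase gene, fell by 0.58 (SE 0.10, adjusted p = 0.00106, edgeR) and Eya3 by 0.28 (adjusted p = 0.0229, edgeR), while Trnau1ap and Atpif1, an inhibitor of the mitochondrial ATP synthase, rose by 0.32 and 0.36 (adjusted p = 0.0306 and 0.0226, edgeR).

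Near Oprl1, 5 of 20 rose and 2 fell. Tcea2, a transcription elongation factor gene 26.9 kb from Oprl1, rose by 0.53 (SE 0.15, adjusted p = 0.0161, edgeR). Zgpat, Pcmtd2, Arfrp1 and Tpd52l2 rose by 0.49, 0.39, 0.35 and 0.29 (adjusted p = 0.0167, 0.00652, 0.00463 and 0.0226, edgeR), where exons of Zgpat and Arfrp1 overlap each other on opposite strands. Sox18, an endothelial transcription factor gene 43.4 kb away, fell by 0.66 (SE 0.22, adjusted p = 0.0335, edgeR), and Dnajc5, a synaptic vesicle chaperone gene, by 0.28 (adjusted p = 0.00627, edgeR). Of the 12 neighbours called, Ipcef1 and Ptpru kept their call in all 18 alternatives. Trnau1ap, Atpif1, Eya3, Zgpat, Tpd52l2, Sox18 and Tcea2 lost theirs without control replicate 2 and also without control replicate 3 (adjusted p 0.0514 to 0.107, edgeR).

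**Figure D5:**
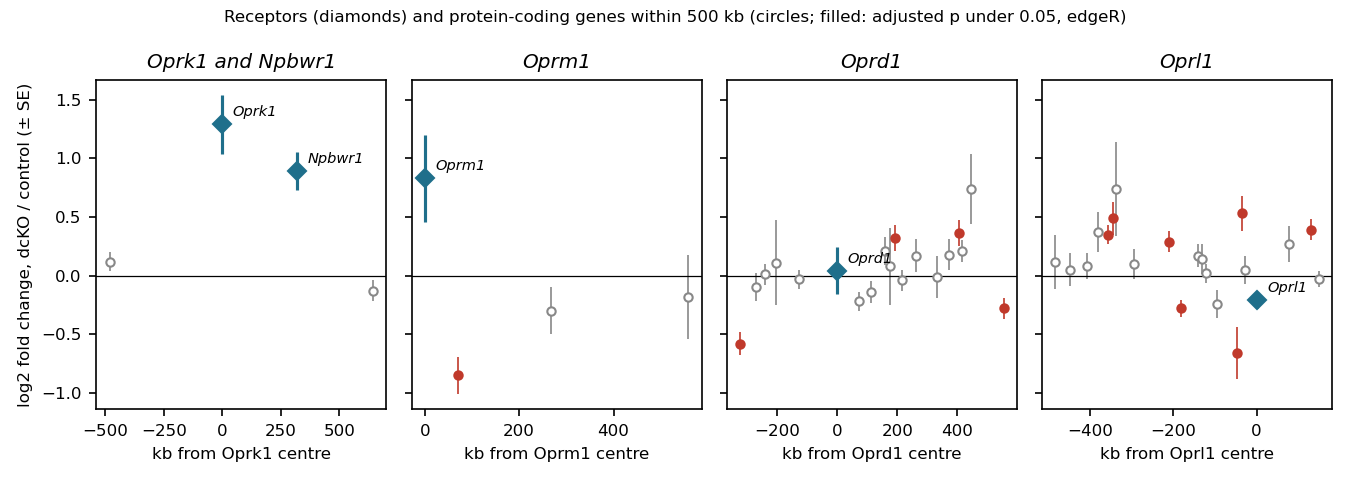
Log2 fold change (± SE, n = 4 each) of the receptors (diamonds, untested) and of tested protein-coding genes within 500 kb (circles, filled where the adjusted p was under 0.05 in edgeR), against distance in kb between gene centres. Oprk1 (1.29) and Npbwr1 (0.89) stand above the tested genes on either side, at 0.12 and -0.13.

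The genes most like each receptor over the 8 samples were found by the root mean square difference of log2 CPM, after each gene was centred on its own mean, among 14606 candidates with a mean of at least 1 CPM. They are the smallest of these differences, so they lie below the median by choice. The difference between the groups counts in this measure, and shared regulation or cell type was not tested. For Oprk1 they were BC043934 (0.20), Gm44593 (0.22) and Ctss, the lysosomal protease cathepsin S of microglia (0.23), against a median of 0.75 over the candidates. For Npbwr1 they were Zhx1, a zinc finger and homeobox gene (0.10), Tmpo, a nuclear lamina protein gene (0.10), and Mettl15 (0.11), against a median of 0.49. For Oprl1 they included Tfip11 and Neurl4, at 0.04 each against 0.25. For Oprd1 they were Shank3, a postsynaptic scaffold gene (0.08), Ankrd27 (0.11) and Mettl16 (0.12), against 0.33. Oprm1 had no equally close match, at 0.25 for Acrbp, 0.27 for Tmem116 and 0.30 for E430024P14Rik against 0.64. It had only 10 to 59 counts in a sample, and the part of counting error in these differences was not tested. Mean Ctss was 9.91 CPM in the controls and 21.7 CPM in the mutants, and Zhx1 at 74.3 and 138.9 CPM. Exons of Tmem116, E430024P14Rik, Shank3, Tfip11, Tmpo and Mettl15 overlap annotated genes on the opposite strand only. Those of Zhx1 overlap a gene on the same strand, and those of Acrbp overlap genes on both strands.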

How the data were processed

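Cortical RNA of 4 dcKO_hGFAP-Cre and 4 control mice at P3 was isolated with TRIZOL, and libraries were made with the TruSeq RNA v2 kit. The files hold raw gene counts without normalization, which the authors obtained with featureCounts after alignment to mm10. The aligner, annotation, strand setting and treatment of reads matching several genes are not given in the sources used here. Of 48709 Ensembl identifiers, 48349 were matched to GENCODE symbols and 30608 had a count. Total counts were 21126713 to 31805395 per control and 22002784 to 32110285 per mutant sample. No replicate pair agreed within sampling noise.

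Groups follow the labels. Counts were tested with edgeR 4.0.16 (R 4.3.3), by quasi-likelihood F test with robust dispersions, TMM scaling, the default filter (minimum count 10, 16525 genes kept) and no block, with Benjamini-Hochberg adjustment over all genes and a threshold of 0.05. The absolute log2 fold change divided by the square root of F gave its standard error. Floors (3 counts) cover counting error only. On simulated counts for 16371 genes in this comparison, the test recovered 71.5% of 200 genes changed 2-fold, and 6.54% of its calls were false (14.77% with DESeq2). The simulated counts used edgeR's own dispersions and few changed genes, while 37.5% of genes were called in the data. These rates therefore do not give the share of false calls in the data. Alternatives were DESeq2 1.42.0, voom of limma 3.58.1, DESeq2 size factors, library totals, other count filters, a replicate or lane block, each replicate left out, and 2 pairs of mutants left out, the last chosen after seeing the data.

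Named are the 5 receptors, all peptide precursors, each signalling gene, related receptor or neighbour within 500 kb that passed the threshold, and the 3 genes nearest in pattern to each receptor. Not every gene that this rule names is reported here. Members of the lists that did not pass, markers, Smarcc1, Smarcc2 and flanking genes of Oprk1 and Npbwr1 are named beside them as context. The receptors and all lists were chosen with earlier results of these data known. Promoters and motifs were read from RefSeq tables.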

Additional observations from a re-analysis of the deposited data

Results flagged for a closer look

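Among 114 groups of 4 samples, one for each named gene and genotype, 7 held a sample whose gap to its nearest neighbour exceeded Dixon's 95% critical share of the range. Chance gives 5.7 such groups. None was a group of a receptor gene. Gnai2 was at 324.8 CPM in dcKO_hGFAP-Cre replicate 3, against 224.2 CPM in the nearest mutant. Adcy1 was at 517.9 CPM in mutant replicate 2, against 829.1 CPM in the nearest mutant. Cacna1a was at 104.0 CPM in mutant replicate 4, next to 77.4 CPM. Arfrp1 was at 61.4 CPM in mutant replicate 2, next to 55.5 CPM. Zhx1 was at 132.2 CPM in mutant replicate 2, next to 140.3 CPM. Mettl16 was at 18.8 CPM in control replicate 1, next to 24.5 CPM. Mettl15 was at 4.24 CPM in control replicate 2, next to 3.37 CPM.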

How the results depend on the processing

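Over the 18 alternatives, the log2 fold change stayed between 1.12 and 1.53 for Oprk1, between 0.80 and 1.01 for Npbwr1 and between 0.52 and 1.13 for Oprm1. That of Oprd1 lay between -0.14 and 0.29, and that of Oprl1 between -0.24 and -0.09, the last with library totals. Levels per kb of the longest transcript were 0.385 for Oprk1, 0.266 for Oprm1 and 28.6 for Oprl1. Library totals shifted the median of all genes by 0.12 and gave 4584 higher and 2102 lower genes against 3074 and 3128, and 12 higher and 2 lower neighbours. With mutant replicates 1 and 2 left out, 1388 genes rose and 1581 fell, 5 signalling genes fell, 1 neighbour rose and 2 fell. With replicates 1 and 3 left out, 1 peptide precursor and 2 signalling genes rose, and 4 neighbours rose and 3 fell. Leaving out each replicate in turn gave 2199 to 3308 higher and 2375 to 3273 lower genes, 1 to 3 higher precursors, 2 to 4 higher and 10 to 11 lower signalling genes, and 2 to 9 higher and 3 to 7 lower neighbours. With limma-voom or without a filter on low counts, 1 precursor rose. Of the 33 called genes in the lists of precursors, signalling genes, related receptors and neighbours, 14 kept their call in all 18 alternatives. The causes were not tested.

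Samples with the same number are not said to be related, and their deviations from the group means correlated at 0.171, -0.068, 0.213 and -0.024, with 2 of 8 samples correlating best with their own number. With the replicate block, 2932 genes rose and 2982 fell, and 1 precursor rose. With the lane as a block 1 precursor rose.

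Counts of 10 to 59 limit Oprm1, and the floor of 3 counts limits Npb and Npw. Reads shared with genes on the opposite strand cannot be separated.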
